A study of Gallus gallus with 8 samples.

Results

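Open chromatin regions that became more accessible in the chicken retinal pigment epithelium (RPE) from embryonic day 4 (E4) to embryonic day 5 (E5), and that were low at E5 after surgery and growth factor treatment, numbered 996 of the 89824 regions measured. They lay on chromosomes 1 to 28 of the GRCg6a build, were at most 5000 bp wide, and had an E5 RPE mean of at least 100 normalized counts. With group means plus 1, the E5 to E4 ratio in developing RPE was at least 1 on the log2 scale. The ratio of treated to developing RPE at E5 was at most -1, and the E5 to E4 ratio in treated RPE was under 0.5. Both E5 RPE libraries had to lie above both E4 RPE libraries and both treated E5 libraries. These values chose the regions, so the levels and ratios of the 996 regions are given below as descriptions, without tests.

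Accessibility was measured by ATAC-seq, which tags DNA that is reachable by the Tn5 transposase, in RPE sheets of chicken embryos. The labels name White Leghorn eggs, whereas the study's methods name SPAFAS pathogen-free eggs for ATAC-seq, so the stock is uncertain. The 4 groups were developing RPE at E4 (E4 RPE), developing RPE at E5 (E5 RPE), and RPE collected at either stage 6 hours after retinectomy with delivery of heparin beads that carried FGF2 (E4 6hPR+FGF2 and E5 6hPR+FGF2, together termed treated RPE). Each group held 2 libraries, and each library came from nuclei of 2 pooled embryos whose sex was not given. No library followed retinectomy alone, so the surgery and FGF2 cannot be told apart. No allele or transgene was involved. The comparison of stages asks which regions change as RPE loses its capacity to form neural retina, and the comparison of treatments asks what the early response to injury and FGF2 does to them.

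The RPE is the pigmented epithelium behind the neural retina, and both arise from the same optic neuroepithelium. In the early chick embryo, RPE exposed to FGF2 after loss of the retina can be reprogrammed to a neural retina, and this capacity is lost as the RPE differentiates. Regions that open during differentiation are often enhancers or promoters of genes used by the maturing cell, and their accessibility reflects occupancy by transcription factors and displacement of nucleosomes. The labelled tissue could not be checked here against RPE marker genes, because gene positions on GRCg6a were not used here beyond a stretch of chromosome 1 that held only LAMB1 and TFEC of the 100 marker and pathway genes listed, and no member region was annotated to either.

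Each library held from 25233633 to 72884966 reads in open regions, with both E5 6hPR+FGF2 libraries among the 3 shallowest. The 2 E4 RPE libraries stood apart from each other over the 996 regions. Replicate 1 lay below replicate 2 in 811 of them (81.4%), against 51.7% of all regions on the same chromosomes and within the same width. The median SD between the 2 E4 RPE libraries was 0.28 on the log2 scale in the 996 regions and 0.20 in all such regions. The other groups also had a larger SD in the 996 regions. It was 0.14 against 0.12 in E5 RPE, 0.23 against 0.17 in E4 6hPR+FGF2 and 0.26 against 0.21 in E5 6hPR+FGF2. The part of the E4 RPE libraries in the choice of regions was measured by leaving each out. Without E4 RPE replicate 1 the same rule chose 783 regions, 668 of them among the 996, and without E4 RPE replicate 2 it chose 1552, of which 941 were among the 996.

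The 996 regions were rather weakly open at E4, rose above every other group at E5, and were lower after treatment than in the younger RPE. The median E4 RPE mean was 91.9 normalized counts and the median E5 RPE mean was 241. Over all regions on chromosomes 1 to 28 of at most 5000 bp these medians were 158 and 160. The median was 53.5 in E4 6hPR+FGF2 and 55.4 in E5 6hPR+FGF2, against 164 and 169 over all such regions. Thus the 2 treated groups lay close together and below E4 RPE. In bulk nuclei, fewer cells with an open region and less accessibility per cell cannot be told apart.

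By library, the medians over the 996 regions were 79.2 and 105 normalized counts at E4 and 242 and 237 at E5 in developing RPE, replicate 1 first. In treated RPE they were 52.4 and 54.2 at E4 and 55.1 and 57.7 at E5. The 4 treated medians fell within a narrow range, and the E4 RPE medians differed from each other by more than all treated medians did. The regions took 0.762% and 0.742% of the signal in all open regions in the E5 RPE libraries. Their share was 0.285% and 0.363% in E4 RPE. After treatment it was 0.191% and 0.207% at E4 and 0.201% and 0.200% at E5. The regions thus held more than 3 times as large a share of signal in developing as in treated E5 RPE, and the treated share hardly differed between stages. The rule limits both of these ratios, so the shares describe the regions only.

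**Figure D1:**
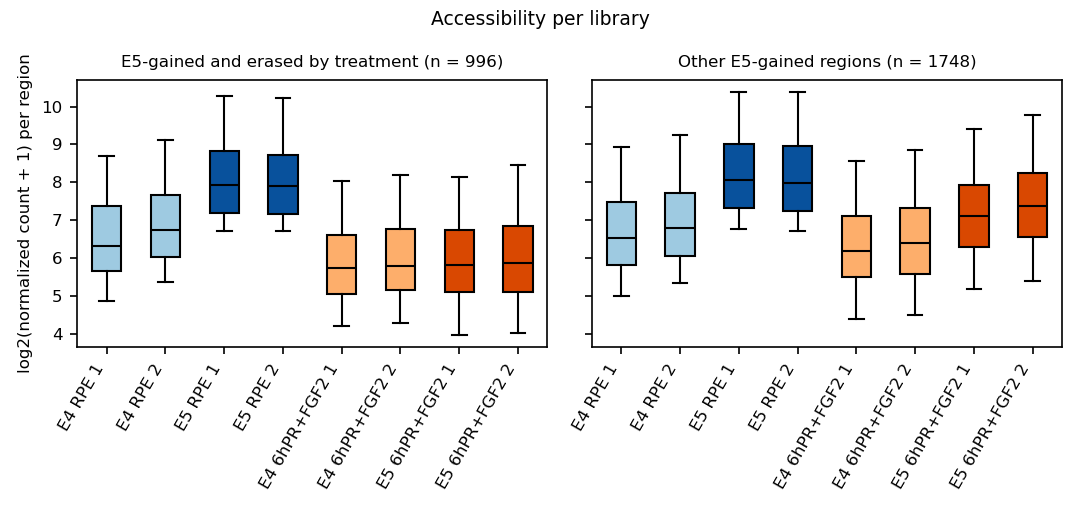
Accessibility per library in the 996 regions (left) and in the other 1748 E5-gained regions (right), as log2(normalized count + 1). Boxes give the quartiles and the median, and whiskers the 5th and 95th percentiles over regions; the left panel has its highest boxes in E5 RPE and nearly level boxes in the 4 treated libraries, whereas on the right the E5 6hPR+FGF2 boxes stand above those of E4 6hPR+FGF2.

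On the log2 scale, the median E5 to E4 ratio in developing RPE was 1.24 and ran from 1.00 to 3.22. The median ratio of treated to developing RPE at E5 was -2.02 and ran from -5.52 to -1.003. A decrease by at least 2 log2 units at E5 was seen in 507 regions, and by at least 3 in 108. Most of the gains were therefore moderate, and by the medians the decrease after treatment was the larger of the 2 changes. The rule limits both ratios, so nothing is read from this difference. At the limits of the rule, the regions just inside had a developing stage ratio of 1.00003 and 1.00021, and those just outside had 0.9984 and 0.9983. The nearest treatment ratios at E5 were -1.0034 and -1.0035 inside and -0.99797 and -0.99784 outside. The nearest treated stage ratios were 0.49986 and 0.49893 inside and 0.50047 and 0.50164 outside.

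The regions were a part of a wider set. In all, 2744 regions met the stage criteria in developing RPE, and 2478 of these (90.3%) were lower in treated than in developing RPE at E5. A decrease by at least 1 log2 unit without overlap of libraries was found in 1765 (64.3%). Over all regions of the same chromosome and width limits, the median treatment ratio at E5 was -0.03. It was at most -1 in 14.3% of them, with overlap of libraries allowed. High E5 RPE values chose the 2744 and also divide this ratio. A fall is therefore favoured, and nothing is read from these shares. In 769 of the 1765, the treated libraries kept a stage ratio of at least 0.5, and the other 996 (36.3% of the 2744) are the regions described here. The 1748 remaining E5-gained regions had similar levels in developing RPE, with medians of 99.5 normalized counts at E4 and 257 at E5. They differed in the treated groups, with medians of 76.3 at E4 and 148 at E5. The rule limits the treated E5 level and the treated stage ratio, but sets no upper limit on the treated E4 level.

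As a further description, treated E5 RPE was set against the younger, untreated RPE. In 902 of the 996 regions (90.6%), the E5 6hPR+FGF2 mean lay below the E4 RPE mean. The median of this ratio was -0.72 on the log2 scale, from -3.89 to 0.75. All 4 libraries separated in that direction in 665 regions (66.8%), beside 34.1% of all 89824 regions. The ratio is the sum of ratios that the rule limits, so nothing is read from this excess. In the other 94 regions the treated E5 mean stayed above the E4 RPE mean.

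Expressed per gain, the fall after treatment at E5 was 125% of the rise from E4 to E5 as a median, from 76.2% to 187%. In 337 regions treated E5 RPE was at most -1 on the log2 scale against E4 RPE, and in 31 at most -2. Outside the rule, the median fall was 78.6% of the rise. In 878 regions E4 RPE was second in the order of the 4 group means, after E5 RPE. By the group means, treated E5 RPE thus lay below E4 RPE in 902 regions, and in the others a part of the gain was left. The rule limits these values, so this describes the regions only.

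At E4, the regions were also lower in treated than in developing RPE, by a smaller amount. The median treatment ratio at E4 was -0.78, from -2.83 to 1.27, and it was at most -1 in 349 regions (35.0%). It was below 0 in 934, and between -1 and 1 in 645. Both E4 6hPR+FGF2 libraries lay below both E4 RPE libraries in 728 regions (73.1%), beside 32.0% of all regions, and above them in 10 (1.00%), beside 30.5%. In the other 1748 E5-gained regions these shares were 55.3% and 17.0%. There the treatment ratio at E4 was at most -1 in 27.4% and below 0 in 70.3%. The E4 treatment ratio shares its group means with the ratios of the rule, so it is not independent of them. By arithmetic it was less negative than the ratio at E5 in all 996 regions, but the rule sets it no upper limit. As read from the group means, most regions were lower in treated RPE at either stage, and further below developing RPE at E5.

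As a description, the E4 treatment ratio was crossed with the ratio of treated E5 RPE to E4 RPE. Both divide by the E4 RPE mean and differ only by the treated stage ratio, which the rule limits. The 2 ratios are therefore not independent, and the classes below are not read as distinct kinds of region. In 254 regions both ratios were at most -1, so that these regions were well below the E4 RPE level after treatment at either stage. In 470 regions the first lay between -1 and 1 and the second between -1 and 0, which is the most frequent combination. In 92 regions the first lay between -1 and 1 and the second above 0. The 349 regions lowered by at least 1 log2 unit at E4 had higher developing levels than the other 647, with median E4 RPE means of 114 against 80.5 and median E5 RPE means of 282 against 207. Their median treatment ratio at E5 was -2.59 against -1.73, while their median developing stage ratios were nearly equal, 1.25 and 1.24. By arithmetic, the E5 treatment ratio is the E4 one plus the treated stage ratio minus the developing one. The split by the E4 ratio thus favours a lower E5 ratio, and also a higher E4 RPE level, which divides the E4 ratio. Nothing is read from these differences.

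**Figure D2:**
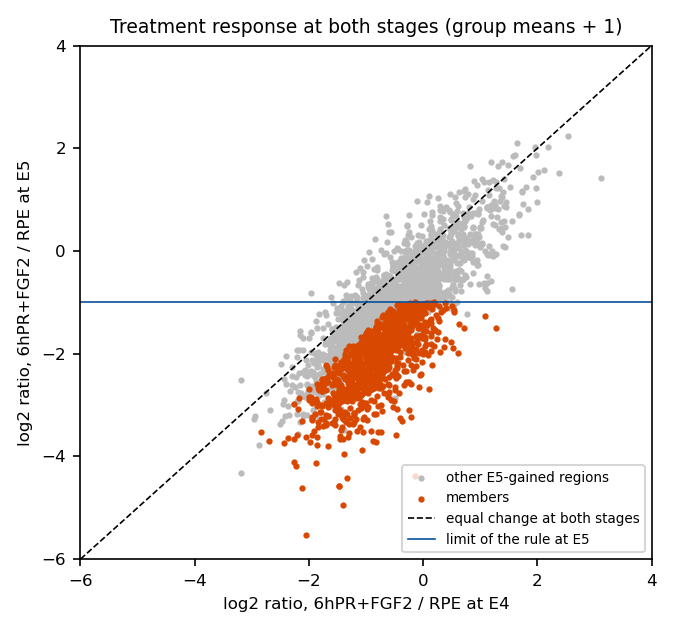
Ratio of 6hPR+FGF2 to RPE at E4 (horizontal) and at E5 (vertical), log2 of group means plus 1, for the 996 regions (orange) and the other 1748 E5-gained regions (grey). The orange points lie below the blue line at -1 and below the dashed line of equal change because the rule places them there, and 934 of the 996 lie left of 0.

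Between treated stages the regions differed little on the whole, within the limit set by the rule. The median E5 to E4 ratio in 6hPR+FGF2 was 0.12, from -1.84 to 0.50. It was above 0 in 614 regions and below 0 in 382, and 89 regions were at most -0.5. With all libraries scaled to equal totals, the median limma fold change of this contrast was -0.01 in place of 0.11 over the 996 regions. Over all regions it moved from 0.03 to -0.09, and that of treatment at E4 from -0.03 to 0.08, so the sign of the small treated stage difference depends on scaling. Both E5 6hPR+FGF2 libraries lay above both E4 6hPR+FGF2 libraries in 207 regions and below them in 127 (12.8%), beside 28.8% and 23.9% of all regions.

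The same contrasts were fitted with limma over all 89824 regions, with Benjamini-Hochberg adjusted p-values of at most 0.05 as calls. Because the rule used these contrasts, the calls are listed only as a description. In developing RPE 482 of the 996 regions were called higher at E5 (48.4%), beside 2.80% of all regions. At E5 985 were called lower after treatment (98.9%), beside 19.3%, and 482 were called in both. Only 3 were called lower at E5 than at E4 after treatment, beside 2.06%, and 0 higher, beside 2.54%. At E4 335 were called lower after treatment (33.6%), beside 9.53%, and 1 higher, beside 10.4%. Of the other 1748 E5-gained regions, 28.4% were called lower after treatment at E4 and 6.29% higher, so calls of lowering at E4 were not particular to the 996. The interaction of stage and treatment, which asks whether the treatment response differed between stages, was called in 0 of the 996 by limma and by edgeR and in 69 by DESeq2, beside 0.342% of all regions by DESeq2. All 996 pointed to a more negative response at E5 by the rule, so their unadjusted p-values are not read. At the same adjusted threshold, limma called 0.00223% of all regions in the positive direction and 0.0% in the negative. Leaving out single libraries moved the count of 482 together with the share of all regions called. It was 0 without E4 RPE replicate 1, beside 0.0%, and 0 without E5 RPE replicate 1, beside 0.00557%. It was 10 with E5 RPE replicate 2 omitted, beside 0.0423%, and 295 with E4 RPE replicate 2 omitted, beside 1.64%. The count of 335 fell to 114 without E4 RPE replicate 2, beside 3.92%. It fell to 178 without E4 6hPR+FGF2 replicate 1 or 2, beside 5.84% and 4.60%. The count of 3, set beside 4.60% of all regions called in either direction, became 0 without E5 RPE replicate 1 or 2, beside 1.80% and 1.76%. It was also 0 without E4 6hPR+FGF2 replicate 1, beside 0.0256%, or without E5 6hPR+FGF2 replicate 2, beside 0.00557%, and it was 8 without E5 6hPR+FGF2 replicate 1, beside 7.36%.

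The regions with the strongest gain rose from low counts in E4 RPE within 1 day of development. A region of 260 bp on chromosome 19 from 3592510 to 3592770 had the largest ratio, 3.22. It had 7.07 and 23.6 normalized counts at E4 and 175 and 128 at E5 in developing RPE, and 13.1 and 12.97 at E4 and 18.4 and 12.2 at E5 in treated RPE. The E5 RPE libraries stood apart from the other 6, which overlapped one another. A region of 480 bp on chromosome 11 from 14818980 to 14819460 gave 28.3 and 50.6 at E4 and 368 and 367 at E5 in developing RPE, and 24.8 and 19.8 at E4 and 42.3 and 19.8 at E5 in treated RPE. Here the E5 RPE replicates were nearly equal, and 3 of the 4 treated libraries lay below both E4 RPE libraries.

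Further strong gains showed the same shape. On chromosome 7 from 29817840 to 29818280, developing RPE had 19.8 and 24.5 normalized counts at E4 and 144 and 194 at E5, and treated RPE 11.7 and 25.2 at E4 and 23.9 and 13.7. at E5 On chromosome 14 from 13387200 to 13387760, developing RPE had 43.8 and 93.0 at E4 and 537 and 433 at E5, and treated RPE 72.5 and 58.0 at E4 and 62.5 and 89.6. at E5 In these regions the 3 other groups overlapped, so that treated RPE at either stage could not be separated from E4 RPE by its libraries. A gain of at least 2 log2 units was seen in 50 of the 996 regions.

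The regions with the deepest loss after treatment at E5 reached very few reads. The lowest ratio, -5.52, belonged to an intronic region of CPNE8, which encodes a calcium-dependent membrane-binding protein of the copine family, on chromosome 1 from 15709490 to 15709690. It had 18.4 and 63.6 normalized counts at E4 and 118 and 141 at E5 in developing RPE, and 14.5 and 3.82 at E4 and 3.67 and 0.0 at E5 in treated RPE. Treated E5 RPE held 2 reads against 336 in E5 RPE, which, scaled for depth, is 77.3-fold lower. The exact 95% interval, from 21.2 to 641, covers counting error only. The region was picked for the lowest ratio from these same reads. The interval therefore lacks its stated coverage, and nothing is concluded from it. With a pseudocount of 10 in place of 1 the ratio of this region was -3.56, so the size of the deepest losses depends on the pseudocount.

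A region on chromosome 1 from 107744960 to 107745490 had 53.7 and 99.5 normalized counts at E4 and 213 and 317 at E5 in developing RPE, and 29.7 and 26.7 at E4 and 9.19 and 6.08 at E5 in treated RPE. On chromosome 2 from 47786850 to 47787330, the values were 42.4 and 129, 241 and 294, 25.5 and 12.2, and 9.19 and 10.6 in the same order of groups. The treated libraries lay below both E4 RPE libraries in each of these regions, and the treated E5 libraries also lay below the treated E4 libraries. Low depth limits such values. The median reads per region were 30 and 38 in the E5 6hPR+FGF2 libraries against 342 and 285 in E5 RPE. This gap holds both the lower depth and the fall that the rule requires. In the E5 6hPR+FGF2 libraries, 72 and 48 of the 996 regions held under 10 reads.

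At the other end were strongly open regions, which kept high counts after treatment but differed in how these stood to E4 RPE. The highest E5 RPE mean belonged to a region of 1340 bp on chromosome 24 from 1139490 to 1140830. It had 1336 and 1406 normalized counts at E4 and 3214 and 3415 at E5 in developing RPE, and 1424 and 1604 at E4 and 1422 and 1843 at E5 in treated RPE. All 4 treated libraries lay above both E4 RPE libraries and below both E5 RPE libraries. A region on chromosome 7 from 33094070 to 33095900 had 915 and 1654 at E4 and 3552 and 2859 at E5 in developing RPE, and 854 and 768 at E4 and 841 and 1021 at E5 in treated RPE. There the treated libraries overlapped with E4 RPE only at E5, through the low value of E4 RPE replicate 1.

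The regions most strongly lowered by treatment at E4 were low after treatment at either stage. On chromosome 5 from 4087770 to 4088580, developing RPE had 252 and 377 normalized counts at E4 and 791 and 796 at E5, and treated RPE 55.9 and 39.7 at E4 and 69.8 and 50.1. at E5 On chromosome 1 from 65225370 to 65225590, developing RPE had 49.5 and 68.5 at E4 and 141 and 121 at E5, and treated RPE 4.14 and 10.7 at E4 and 7.35 and 13.7. at E5 Treated and developing libraries did not overlap at either stage in either region. The opposite was seen on chromosome 23 from 5325230 to 5325630, with the highest treatment ratio at E4, 1.27. It had 42.4 and 71.8 in E4 RPE, 137 and 142 in E4 6hPR+FGF2, 147 and 302 in E5 RPE and 91.9 and 65.3 in E5 6hPR+FGF2, so its accessibility was higher after treatment at E4 and lower after treatment at E5.

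Gene names were available for the regions at the start of chromosome 1, where 19 of the 996 regions lay among 1926 annotated ones. Of the 19, 16 were intronic, 1 exonic, 2 intergenic and 0 at a promoter. Over the 1926 regions, 50.5% were intronic, 3.06% exonic, 36.5% intergenic and 7.22% at promoters. With 19 regions on 1 stretch of 1 chromosome, this describes only these regions. For 14 of them the annotation gave a gene name, and the roles named below are background known mainly from human and mouse. A name marks the nearest transcription start and does not show that the region regulates that gene.

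Among the named genes, SEMA3E and SEMA3C encode guidance cues and PLXNB2 a guidance receptor, which are not a ligand and receptor pair here. An intergenic region nearest SEMA3E, a secreted semaphorin that guides axons and vessels, lay at 9625270 to 9626090. It had 365 and 400 normalized counts at E4 and 593 and 1046 at E5 in developing RPE, and 150 and 234 at E4 and 129 and 286 at E5 in treated RPE. An intronic region of SEMA3C, a related secreted semaphorin, at 11233570 to 11234660 had 219 and 325 at E4 and 581 and 645 at E5 in developing RPE, and 120 and 158 at E4 and 143 and 213 at E5 in treated RPE. All 4 treated libraries lay below both E4 RPE libraries at each of these semaphorin regions. An intronic region of PLXNB2, a plexin receptor for transmembrane semaphorins, at 20715570 to 20715800 differed at E4. It had 45.3 and 70.1 at E4 and 106 and 143 at E5 in developing RPE, and 57.3 and 72.5 at E4 and 55.1 and 31.9 at E5 in treated RPE, so treated and developing RPE overlapped at E4.

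Others encode secreted, vesicle or junction proteins. TAFA5, which encodes a secreted chemokine-like protein of the nervous system, held 2 of the regions in its introns. The first, at 17405880 to 17406160, had 18.4 and 40.8 normalized counts at E4 and 120 and 101 at E5 in developing RPE, and 15.2 and 7.63 at E4 and 18.4 and 12.2 at E5 in treated RPE. The second, at 17518790 to 17519330, had 221 and 281 at E4 and 639 and 526 at E5 in developing RPE, and 146 and 115 at E4 and 132 and 166 at E5 in treated RPE. The treated libraries of the second lay below both E4 RPE libraries, and those of the first reached no higher than the lower E4 RPE library. An intronic region of MAGI2, a scaffold protein of cell junctions, at 11842450 to 11843290 had 77.8 and 180 at E4 and 364 and 395 at E5 in developing RPE, and 78.0 and 71.7 at E4 and 107 and 103 at E5 in treated RPE. An intronic region of CADPS2, which acts in release from dense-core vesicles, at 22680420 to 22680720 had 29.7 and 54.6 at E4 and 139 and 103 at E5 in developing RPE, and 33.1 and 39.7 at E4 and 51.4 and 36.5 at E5 in treated RPE. In these last regions all or most treated libraries lay between the E4 RPE replicates.

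Regions at regulators of transcription and chromatin were among them too. An intronic region of FOXP2, a forkhead transcription factor, at 26097350 to 26097680 had 80.6 and 69.3 normalized counts at E4 and 135 and 173 at E5 in developing RPE, and 53.1 and 46.6 at E4 and 33.1 and 69.9 at E5 in treated RPE. The 2 treated E5 libraries differed by more than the 2 treated E4 libraries and reached into the E4 RPE range. An intronic region of KMT2E, a SET domain protein linked to chromatin and cell cycle control, at 13906720 to 13907070 had 49.5 and 64.4 at E4 and 127 and 187 at E5 in developing RPE, and 38.6 and 37.4 at E4 and 33.1 and 36.5 at E5 in treated RPE. All treated libraries were close together there and below E4 RPE.

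The other named regions were an intronic region of CHCHD3, a protein of the mitochondrial inner membrane, an intronic region of TBC1D22A, which has the TBC domain of Rab GTPase activating proteins, and regions nearest PSMC2, a proteasome ATPase, and TRMU, a mitochondrial tRNA modifying enzyme, that lay in introns of other genes. Of these, CHCHD3 had the lowest level after treatment, with 22.1 and 17.6 normalized counts at E4 and 18.4 and 7.60 at E5 in treated RPE, against 38.2 and 56.3 at E4 and 105 and 147 at E5 in developing RPE. TBC1D22A had the highest level after treatment, with 151 and 191 in E5 6hPR+FGF2 against 133 and 144 in E4 RPE and 398 and 361 in E5 RPE. In E4 6hPR+FGF2 it had 129 and 128, below both E4 RPE libraries.

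**Figure D3:**
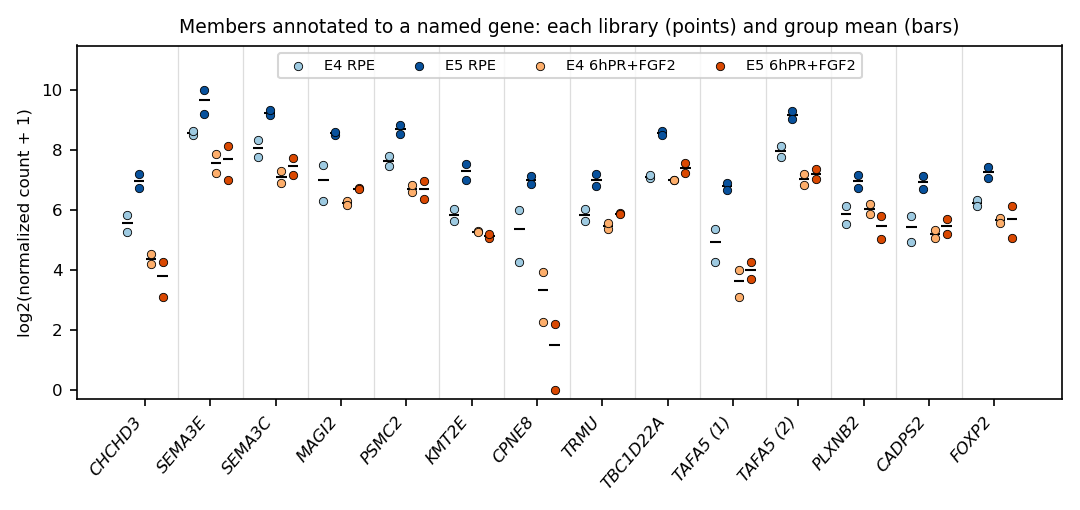
Normalized counts, as log2(value + 1), of the 14 regions that carry a gene name by the annotation. Points are libraries, 2 per group, and bars are group means; E5 RPE has the highest mean at every region, and CPNE8 reaches 0.0 in 1 E5 6hPR+FGF2 library.

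The 996 regions were unevenly spread over chromosomes of different size. Chromosomes 1 to 5 held 658 of them (66.1%), against 53.7% of all regions of the same width and chromosome limits and 53.5% of the other E5-gained regions. Chromosomes 13 to 28 held 120 (12.05%), against 23.3% and 22.6%. As a share of open regions this was 1.47% on chromosomes 1 to 5, 1.14% on chromosomes 6 to 12 and 0.617% on chromosomes 13 to 28. Chromosome 1 alone held 202, and chromosomes 16, 22 and 25 held 0 of 114, 726 and 533 open regions. The share thus fell from the largest to the smallest chromosomes, while that of the other E5-gained regions followed the open regions as a whole.

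**Figure D4:**
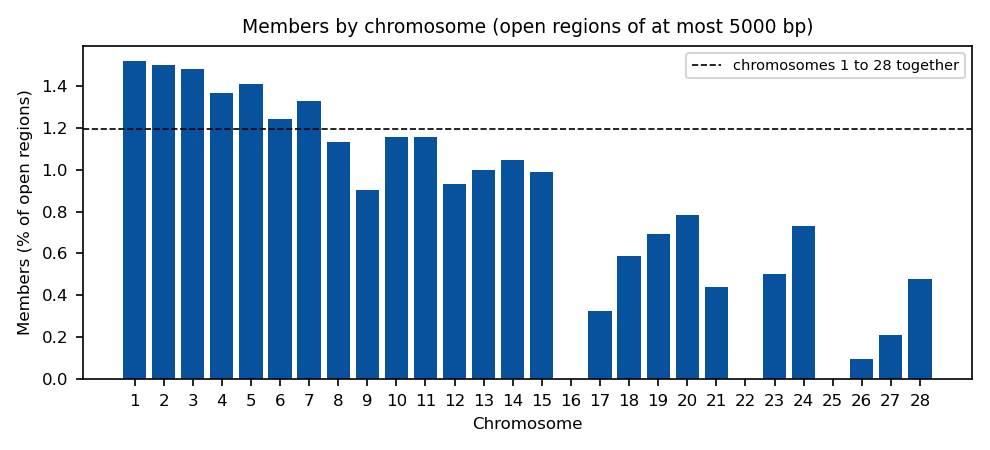
The 996 regions as a percentage of the open regions of at most 5000 bp on each chromosome. The dashed line is the share over chromosomes 1 to 28 together; chromosomes 1 to 7 lie above it, with 1.52% on chromosome 1, and chromosomes 8 to 28 lie below it.

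Most of the regions stood alone, and a minority were grouped. The median width was 530 bp, from 200 to 3230 bp. The median distance to the nearest open region of any kind was 4125 bp, against 3195 bp over all regions of the same limits. Another of the 996 regions lay within 10000 bp in 66 cases (6.63%), whereas 2.22% of all regions and 3.78% of the other E5-gained regions had one of the 996 that near. Joined over gaps of up to 50000 bp, the regions formed 840 singles, 63 pairs and 10 groups of 3.

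The tightest group lay on chromosome 3 from 10123720 to 10126360, where the only 3 open regions within 2640 bp were all members. The second of them had 15.6 and 43.2 normalized counts at E4 and 96.9 and 122 at E5 in developing RPE, and 28.98 and 40.4 at E4 and 25.7 and 39.5 at E5 in treated RPE. The third had 43.8 and 58.7, 132 and 171, 53.1 and 52.7, and 44.1 and 41.03 in the same order of groups. At each of them treated and developing libraries overlapped at E4, and the E5 RPE libraries stood above all 6 others. Another group on chromosome 1 from 129725370 to 129734260 also consisted of 3 open regions, all members, but there all treated libraries lay below both E4 RPE libraries. Its middle region had 80.6 and 77.5 at E4 and 249 and 187 at E5 in developing RPE, and 33.1 and 49.6 at E4 and 40.4 and 39.5 at E5 in treated RPE. Within each of these groups, the member regions resembled each other in whether treated libraries lay below E4 RPE.

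Open regions around the 996 were chosen by position, except that regions meeting the rule by their own signal were left out. The values of these neighbours were set beside those of all regions, which include the 996. Within 10000 bp, counted from midpoint to midpoint, lay 1798 other regions. Of these, 437 (24.3%) were called lower after treatment at E5 by limma, beside 19.3% of all regions, and 238 (13.2%) were called higher, beside 18.2%. In developing RPE, 95 (5.28%) were called higher at E5, beside 2.80%, and 13 (0.723%) lower, beside 1.35%. The medians were shifted the same way, with a log2 fold change of 0.13 from E4 to E5 against 0.02 over all regions, and -0.21 for treatment at E5 against -0.04. The count of 95 was 0 without E4 RPE replicate 1, or without either E5 RPE library, where at most 0.0423% of all regions were called, and 55 without E4 RPE replicate 2. The count of 437 was 221 without E5 RPE replicate 1, beside 10.05% of all regions, and 256 without E5 RPE replicate 2, beside 10.99%.

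The shift of the medians was largest for the nearest regions. The 58 regions within 1000 bp had a median log2 fold change of 0.32 from E4 to E5 in developing RPE and -0.97 for treatment at E5, and 44.8% were called lower after treatment. In developing RPE 1.72% of them were called higher at E5, beside 2.80% of all regions, and 58 regions are too few to compare these shares. Between 1000 and 2500 bp the medians were 0.18 and -0.25 over 304 regions, and 6.91% were called higher at E5. Between 10000 and 25000 bp they were 0.09 and -0.14 over 2664 regions, and from 100000 to 250000 bp they equalled those of all regions to 2 decimals for development and for treatment at E5, 0.02 and -0.04.

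**Figure D5:**
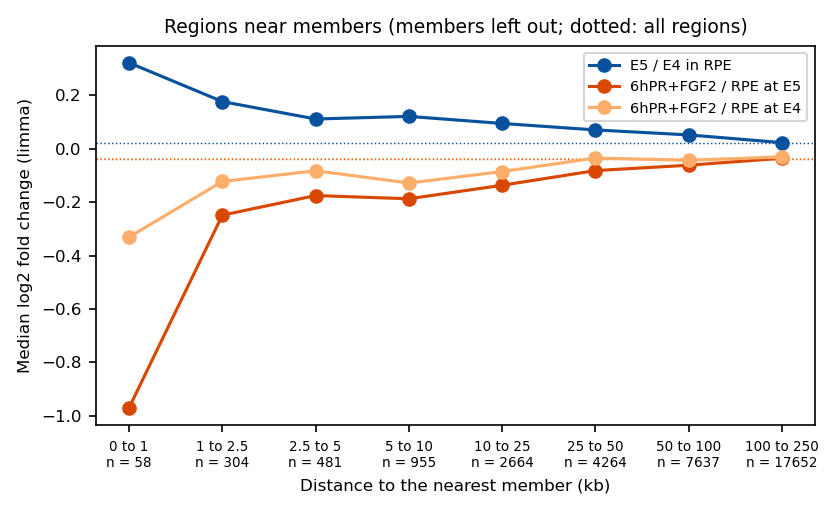
Median log2 fold change (limma) of open regions that are not among the 996, by distance from midpoint to midpoint of the nearest of them, in kb, with the number of regions under each bin. Dotted lines give the medians of all 89824 regions; the medians of the 58 regions within 1 kb are 0.32 for E5 against E4 in RPE, -0.97 for treatment at E5 and -0.33 for treatment at E4.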

How the data were processed

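ATAC-seq reads of 8 libraries were trimmed with Cutadapt and Trim Galore, aligned to GRCg6a with Bowtie2 and freed of duplicates with Picard by the authors, who called open regions with HMMRATAC, merged them with BEDTools, counted reads with featureCounts and normalized with DESeq2. The deposited signal is a normalized read count per region. Not given in the sources used here were tool versions, a transposase shift and whether starts count from 0 or 1. Whole reads were recovered from 100% of values within 1e-06.

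Limma 3.58.1 in R 4.3.3 was fitted to log2(normalized count + 1) with group means over all 8 libraries, and two-sided p-values were Benjamini-Hochberg adjusted over 89824 regions. Fold changes on this scale understate changes at low signal. With 2 pools per group, p-values measure only the spread between these samples. The 996 regions and all lists were chosen with earlier results of these data known. Named regions were those with the highest or lowest value of each ratio, signal or width, the 3 leading groups, and those annotated to a named gene. Gene names came from the study's annotation of the start of chromosome 1. No genome of GRCg6a was used here, so sequences, motifs and base composition are not reported. Alternatives were other pseudocounts, limits, scalings, edgeR 4.0.16, DESeq2 1.42.0, a replicate block and omission of each library.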

Additional observations from a re-analysis of the deposited data

Results flagged for a closer look

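In 127 of the 996 regions, both E5 libraries lay above both E4 libraries in developing RPE and below both E4 libraries after 6hPR+FGF2. These were 12.8% of the 996, whereas both treated E5 libraries lay below both treated E4 libraries in 23.9% of all regions. The developing direction was fixed by the rule. The difference between the stage effects is the interaction, which limma called in 0 of the 996. Over all regions limma called 0.00223% in the positive direction and 0.0% in the negative. DESeq2 called 69 of the 996, beside 0.342% of all regions. The rule fixed the interaction as negative in all 996. The 0 is therefore not read as equal stage effects, nor the 69 as a difference between them. The intronic region of CPNE8 was among the 127. Its nearest treated E4 and E5 libraries, 3.82 and 3.67 normalized counts, almost met. On chromosome 1 from 117511290 to 117511620, developing RPE had 15.6 and 21.2 at E4 and 128 and 82.5 at E5, and treated RPE 18.6 and 14.5 at E4 and 3.67 and 4.56 at E5.

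In 10 of the 996 regions, both treated libraries lay above both developing libraries at E4 and below both at E5. These were 1.00% of the 996, whereas both treated libraries lay above both developing libraries at E4 in 30.5% of all regions. The E5 direction was again fixed by the rule. The difference between the treatment effects is the same interaction, with 0 of the 996 called by limma. Beside this stood 0.00223% of all regions in the positive direction and 0.0% in the negative. By DESeq2 it was 69 of the 996, beside 0.342%. The rule fixed the sign of the interaction here too. The 0 is therefore not read as equal treatment effects, nor the 69 as a difference between them. The region on chromosome 23 described above was 1 of the 10. Another, on chromosome 1 from 180908730 to 180910300, had 218 and 261 normalized counts in E4 RPE, 286 and 334 in E4 6hPR+FGF2, 897 and 886 in E5 RPE and 261 and 284 in E5 6hPR+FGF2.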

How the results depend on the processing

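The number of regions chosen was 382 with a treated stage ratio under 0, 1532 with one under 1 and 581 with an E5 RPE mean of at least 200. Under the other limits and scalings tried it ran from 866 to 1320, and with 1 library left out from 783 to 1552. The classes kept within 1.5 times of their counts under each alternative. With 1 library left out, regions with an E4 treatment ratio of at most -1 numbered 241 to 448, regions with treated E5 below E4 RPE 794 to 923, and those at most -1 on that ratio 253 to 417. DESeq2 called 773 of the 996 and 154 neighbours higher at E5 in developing RPE, beside 5.29% of all regions, 6 of the 996 in the treated stage contrast, beside 9.16%, and 69 in the interaction, beside 0.342%. With 1 library left out, calls among the 996 ran from 0 to 536 for development, 825 to 989 for treatment at E5, 0 to 8 for the treated stage contrast, 114 to 387 for treatment at E4 and 0 to 0 for the interaction. Calls among neighbours ran from 0 to 101 for development and 221 to 430 for treatment at E5. Such fits leave a group with 1 library, which is assumed to vary like the others. Apart from the interaction, the share of all regions called also moved widely between these fits. The ranges therefore cannot be read as changes in the listed regions alone. Equal replicate numbers are not stated to mark a shared origin, and deviations of equally numbered libraries correlated from -0.21 to 0.33 across regions. With the replicate number as a block, the treated stage contrast had 5 calls, beside 9.01% of all regions (4.60% without the block), and 146 neighbours and 677 of the 996 were called higher at E5 in developing RPE, beside 4.78% (2.80% without it). Of 1104 recomputed values of the 46 named regions, 14 moved by more than the combined replicate SD of both groups compared, and 0 changed sign. All 14 moved with a pseudocount of 10 or with equal totals. Leaving out 1 library could hardly move a value past that limit, and the rule fixed its sign. The omissions are therefore not read as support for these values.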
